A study of Mus musculus with 12 samples.

Results

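The genes described here are Ly6a, Ly6e, Ly6c2 and Ly6c1, which encode small surface proteins of the Ly6 family. They were taken as a list by gene symbol, and they are 4 of the 56748 genes in the count table, of which 15688 passed a filter on low counts and were tested. All 4 passed that filter, Ly6c1 only through experiment 2. They were listed with the effect of dichloroacetate (DCA) in these same libraries known, Ly6c2 being among the larger decreases, so their DCA values are given as a description with no test.

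Libraries for bulk RNA sequencing came from CD8+ T cells grown from the spleens of 6 mice with a transgenic T cell receptor, with 3 mice per experiment and 2 experiments. Cells were stimulated for 24 hours with SIINFEKL (250 nM, for OT-1 cells) or gp100 peptide (1 uM, for pmel-1 cells), expanded for 6 days in IL-2 (50 ug/mL) and 10% serum, and sorted for CD8 on day 7. The 4 groups of 3 libraries were DCA (5 mM throughout expansion) and untreated cells of experiment 1, and DCA and untreated cells of experiment 2, and each mouse gave cells to both arms. Experiment 1 carries the strain label C57BL/6-Tg(TcraTcrb)1100Mjb/J and the genotype OT-1, although its library titles say Pmel-1. Experiment 2 carries the strain label B6.Cg-Thy1a/Cy, with the transgene Tg(TcraTcrb)8Rest/J, and the genotype Pmel-1. Most T cells of such mice carry the transgenic receptor, and strain, technical batch and experiment coincide, so they cannot be told apart. DCA inhibits the kinases that switch off pyruvate dehydrogenase and so favours entry of pyruvate into the mitochondria.

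Ly6 proteins share a compact cysteine-rich fold and are held at the cell surface by a glycosylphosphatidylinositol (GPI) anchor. In mouse CD8+ T cells, Ly6a (the protein known as Sca-1) and Ly6c are activation and memory markers, and interferons raise the transcripts of several family members. Ly6c1 and Ly6c2 are neighbouring, near-identical genes whose products are both detected as Ly6C.

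Library totals were 28039699 to 41051066 counts, and 23635 to 26571 genes were detected per library in experiment 2, against 18382 to 19551 in experiment 1. The 8 CD8 T cell markers summed to 5690 to 6050 CPM (counts scaled to a common library total, after TMM scaling) in DCA libraries and 5780 to 6510 CPM in untreated libraries of experiment 1, and none was at 0. By edgeR's adjusted p, 1 of the 8 was higher and 2 were lower with DCA there, against 16.7% of all tested genes in either direction. In experiment 2 the 8 markers summed to 4600 to 4750 CPM in DCA libraries and 5680 to 6150 CPM in untreated libraries. By edgeR's adjusted p, 6 of the 8 were lower and 0 higher with DCA in experiment 2, against 4.57% of all tested genes in either direction. The part of that shift in the experiment 2 values below was not tested. The 4 CD4 T cell markers summed to at most 8.55 CPM in any library.

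Since the counts of Ly6c1 and Ly6c2 depend on how reads were divided between them, the start of both coding sequences is shown, from GENCODE release M21 transcripts on GRCm38 (chromosome 15, minus strand). Capitals mark the 6 positions among bases 1 to 150 at which they differ.
Ly6c1: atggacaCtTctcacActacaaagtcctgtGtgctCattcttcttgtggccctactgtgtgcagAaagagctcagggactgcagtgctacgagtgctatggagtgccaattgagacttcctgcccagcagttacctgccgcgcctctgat
Ly6c2: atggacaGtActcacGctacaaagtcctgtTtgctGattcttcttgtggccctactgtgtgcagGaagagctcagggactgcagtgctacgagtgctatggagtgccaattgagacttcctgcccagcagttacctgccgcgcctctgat
The 6 differences fall in the first 65 bases, and the next 188 bases, 66 to 253, are identical. Over the whole coding sequence of 393 bases in each gene there were 9 mismatches, an identity of 97.71%. Of all 50-base stretches of Ly6c2 transcripts in that annotation, 30.84% also occur in Ly6c1 transcripts, and 14.86% of 100-base stretches do. Of Ly6a's 50-base stretches, 15.03% occur in Ly6c1 and 0.2313% in Ly6c2, and for Ly6e 0 of 2829 occur in transcripts of any other gene. The division of reads between Ly6c1 and Ly6c2 is uncertain, with read length and the handling of reads that match several genes not given in the sources used here.

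Ly6a, Ly6e and Ly6c2 had lower transcript levels in DCA than in untreated cells in both experiments. Ly6c2 was 50.3% lower by the fit over both experiments, Ly6a 28.5% lower and Ly6e 19.3% lower. Each was lower with DCA in 6 of 6 mice, a pattern that 10.8% of all tested genes had. In both experiments every DCA library of these 3 genes lay below every untreated library, which was the case for 6.63% of tested genes. Ly6c1 was close to undetected and followed no common direction. In bulk RNA, fewer cells that express a gene and less RNA per cell cannot be told apart.

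**Figure D1:**
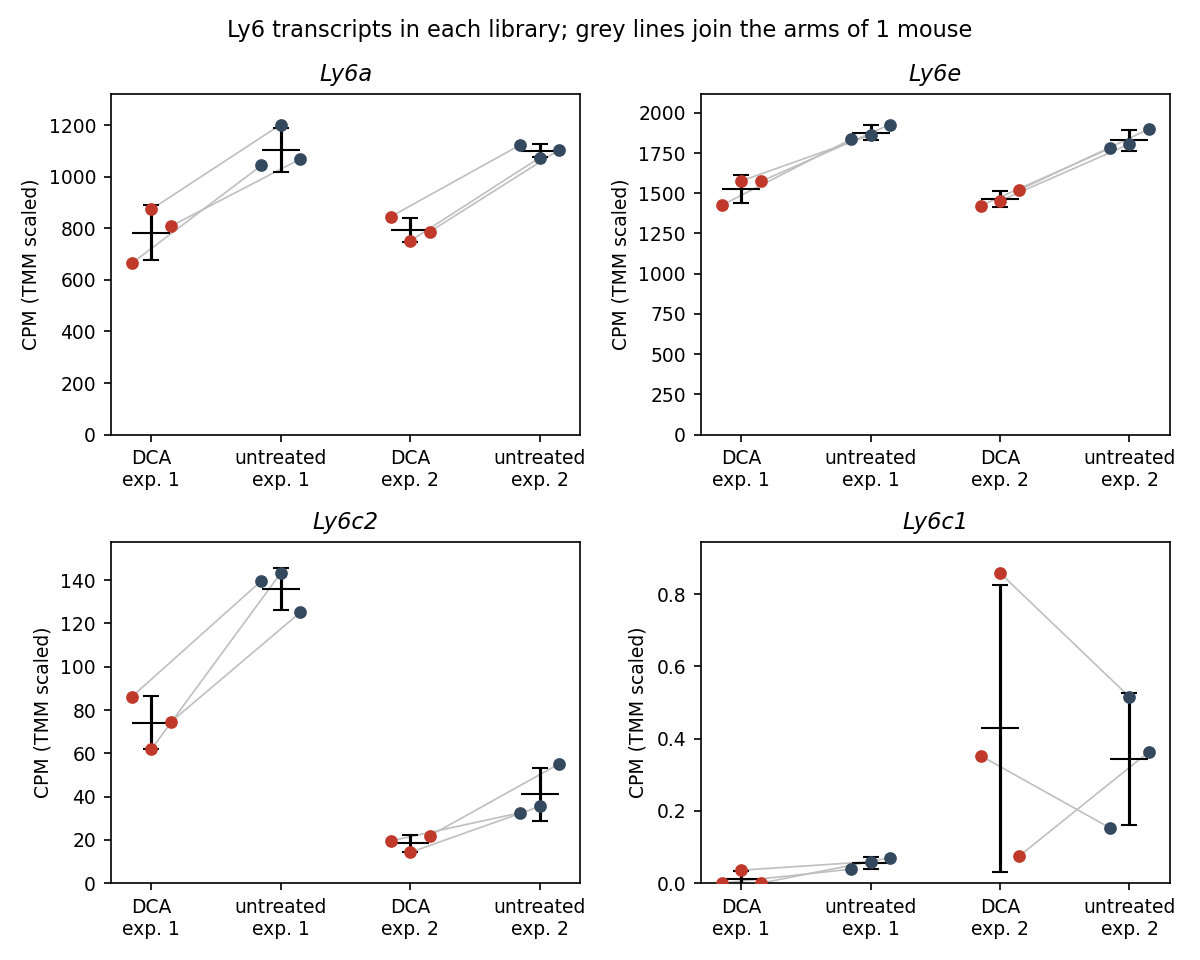
CPM after TMM scaling (vertical axes, from 0) of each Ly6 gene in the DCA and untreated libraries of experiments 1 and 2; points are libraries, black bars the mean and SD of 3 libraries, and grey lines join the arms of 1 mouse. For Ly6a, Ly6e and Ly6c2 every DCA point lies below every untreated point of its experiment, and Ly6c2 is lower in experiment 2 than in experiment 1.

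Ly6a encodes Sca-1, the stem cell antigen that activated and memory T cells also carry. In experiment 1, it had 665, 874 and 808 CPM in the DCA libraries of mice 1, 2 and 3, against 1043, 1202 and 1068 CPM in their untreated libraries. In experiment 2, it had 845, 751 and 786 CPM in DCA libraries, against 1123, 1073 and 1103 CPM in untreated libraries. The DCA libraries were low in both experiments, and no DCA value reached the lowest untreated one. Ly6a averaged 782 ± 107 CPM in DCA cells and 1105 ± 85.3 CPM in untreated cells of experiment 1, and 794 ± 47.5 CPM in DCA cells and 1100 ± 24.8 CPM in untreated cells of experiment 2 (SD, n = 3 each). The log2 fold change of Ly6a was -0.50 (SE 0.09) in experiment 1, -0.47 (SE 0.09) in experiment 2 and -0.48 (SE 0.06) over both. Within single mice the DCA value was 24.4% to 36.3% below the untreated one.

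Ly6e encodes a family member known in mouse and human cells for its effects on virus entry, and it is present on immature and activated lymphocytes. In experiment 1, Ly6e had 1426, 1577 and 1573 CPM in the DCA libraries of mice 1, 2 and 3, against 1836, 1862 and 1927 CPM in untreated libraries. In experiment 2, it had 1422, 1453 and 1521 CPM in DCA libraries, against 1779, 1806 and 1899 CPM in untreated libraries. The shift was the smallest of the 3 genes with lower levels and also the most even: within single mice, DCA values were 15.3% to 22.4% below the untreated ones. In experiment 2 alone that range was 19.5% to 20.1%. The log2 fold change of Ly6e was -0.30 (SE 0.05) in experiment 1, -0.32 (SE 0.05) in experiment 2 and -0.31 (SE 0.04) over both.

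Ly6c2 encodes the Ly6C form found on memory and effector CD8+ T cells and on inflammatory monocytes. In experiment 1, Ly6c2 had 86.2, 61.9 and 74.4 CPM in the DCA libraries of mice 1, 2 and 3, against 140, 143 and 125 CPM in untreated libraries. In experiment 2, it had 19.5, 14.2 and 21.8 CPM in DCA libraries, against 32.5, 35.4 and 55.1 CPM in untreated libraries. The groups did not overlap in either experiment, and the untreated library of mouse 3 in experiment 2 stood highest of its group. Ly6c2 averaged 74.2 ± 12.2 CPM in DCA cells and 136 ± 9.64 CPM in untreated cells of experiment 1 (SD, n = 3 each). It averaged 18.5 ± 3.91 CPM in DCA cells and 41.0 ± 12.3 CPM in untreated cells of experiment 2 (SD, n = 3 each). The log2 fold change of Ly6c2 was -0.88 (SE 0.19) in experiment 1, -1.15 (SE 0.20) in experiment 2 and -1.01 (SE 0.14) over both. Within single mice the DCA value was 38.3% to 60.4% below the untreated one.

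Ly6c1 was measured at the limit of detection. In experiment 1, it had 0, 1 and 0 counts in the DCA libraries of mice 1, 2 and 3, against 1, 2 and 2 counts in untreated libraries. All 6 values are below a floor of 3 counts, so no fold change is given. In experiment 2, Ly6c1 had 12, 31 and 3 counts in DCA libraries, against 5, 17 and 14 counts in untreated libraries. The groups overlapped, with a log2 fold change of 0.31 (SE 0.88) and the DCA library lower in 1 of 3 mice.

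Of the Ly6c1 and Ly6c2 counts together, Ly6c1 took a share of at most 0.0579% in the DCA libraries and at most 0.0564% in the untreated libraries of experiment 1. For a DCA library of experiment 1 with 0 of 2257 counts, the Clopper-Pearson 95% interval of the share reaches 0.163%. In experiment 2 the share was 1.78%, 5.70% and 0.345% in the DCA libraries of mice 1, 2 and 3, against 0.467%, 1.43% and 0.655% in untreated libraries. The DCA library of mouse 2 stood highest, with an interval of 3.90% to 7.99%, and intervals and floors cover counting error only. With both genes summed into 1 feature, the log2 fold change over both experiments was -0.999, against -1.01 for Ly6c2 alone.

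**Figure D2:**
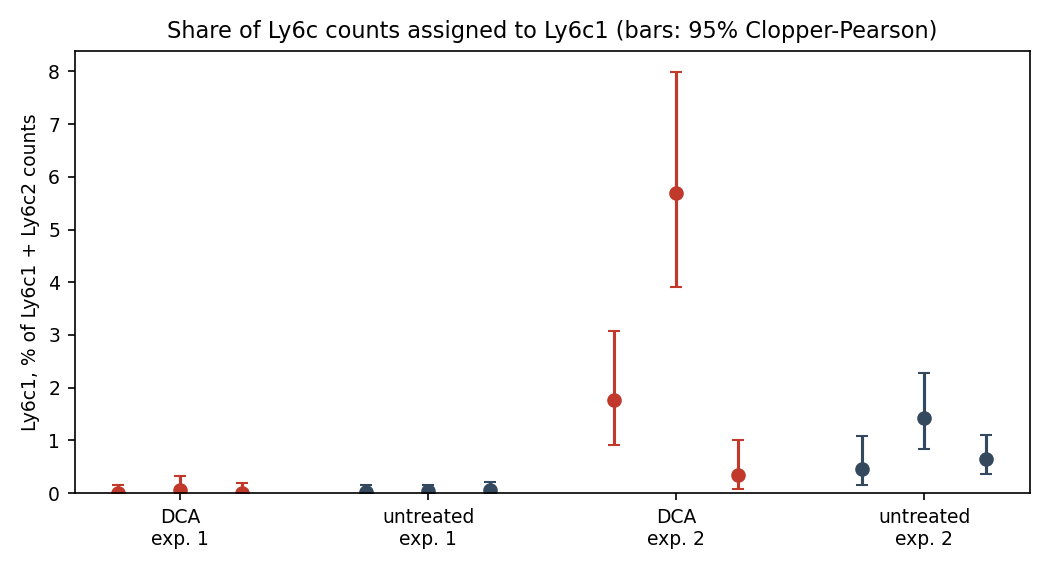
Share of the summed Ly6c1 and Ly6c2 counts assigned to Ly6c1 (vertical axis, percent) in each of the 12 libraries, grouped as DCA and untreated libraries of experiments 1 and 2; bars are Clopper-Pearson 95% intervals. The share is at most 0.0579% in experiment 1 and between 0.345% and 5.70% in experiment 2, where the DCA and untreated libraries overlap.

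In the authors' deposited table, the log2 fold changes were -0.48 for Ly6a, -0.30 for Ly6e and -1.005 for Ly6c2. Under cyclic loess normalization the values shrank to -0.33 for Ly6a and -0.14 for Ly6e over both experiments, to -0.30 for Ly6a and -0.09 for Ly6e in experiment 1, and to -0.35 for Ly6a and -0.19 for Ly6e in experiment 2.

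Per kilobase of the longest coding transcript in the M21 annotation, the level of Ly6a was highest in all 4 groups, then Ly6e, Ly6c2 and Ly6c1. In experiment 1 Ly6a stood at 819 ± 112 CPM per kilobase in DCA cells and 1157 ± 89.3 in untreated cells, and Ly6e at 669 ± 37.7 in DCA cells and 822 ± 20.5 in untreated cells (SD, n = 3 each). Their ranges did not overlap even in DCA cells of experiment 1, where Ly6a had 696 to 915 and Ly6e 625 to 691 CPM per kilobase. Ly6c2 was far below both, with 90.2 ± 14.8 CPM per kilobase in DCA cells and 166 ± 11.7 in untreated cells of experiment 1. Of the summed CPM of the 4 genes, Ly6c2 made up 2.46% to 3.96% in DCA libraries and 4.01% to 4.63% in untreated libraries of experiment 1. In experiment 2 it made up 0.640% to 0.938% in DCA libraries and 1.11% to 1.80% in untreated libraries.

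The DCA effects were next compared between experiments. The genes were listed with the DCA effect in these libraries known, so this comparison is not independent of their choice. By edgeR's quasi-likelihood test, 0 of the 3 genes other than Ly6c1 differed at an adjusted p of 0.05, against 0.331% of all tested genes, and 0 had an unadjusted p under 0.05. limma-voom and DESeq2 also called 0 of the 3. The DCA effect in experiment 2 minus that in experiment 1 was 0.03 on the log2 scale for Ly6a (SE 0.12, adjusted p = 0.955) and -0.02 for Ly6e (SE 0.08, adjusted p = 0.945). For Ly6c2 it was -0.27 (SE 0.27, adjusted p = 0.722), about the size of its error. The counts of Ly6c1 in experiment 1 were too low for this difference to be read.

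In untreated cells, Ly6c2 was 69.8% lower in experiment 2 than in experiment 1, while Ly6a and Ly6e stood at almost the same CPM. Ly6c2 averaged 41.0 ± 12.3 CPM in experiment 2 and 136 ± 9.64 CPM in experiment 1, and the untreated libraries did not overlap (SD, n = 3 each). Its log2 fold change, experiment 2 over experiment 1, was -1.73 (SE 0.20, edgeR adjusted p = 2.88e-06). The DCA libraries showed the same order, with 14.2 to 21.8 CPM in experiment 2 and 61.9 to 86.2 CPM in experiment 1. Of the 3 genes other than Ly6c1, 1 passed in this contrast, against 51.8% of all tested genes, so a call here is common.

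For Ly6a the log2 fold change between the untreated cells of the experiments was -0.01 (SE 0.09, adjusted p = 0.960) and for Ly6e -0.04 (SE 0.05, adjusted p = 0.604). Under cyclic loess normalization the direction turned and both passed, with 0.88 for Ly6a (limma adjusted p = 3.24e-07) and 0.99 for Ly6e (adjusted p = 1.75e-10) higher in experiment 2. The median of all genes was 0.11 in the TMM fit and -0.01 under cyclic loess. Ly6c2 kept its direction in every alternative, between -1.92 and -1.50, leaving out single libraries included. Ly6c1 had 36 counts in the untreated libraries of experiment 2 and 5 in those of experiment 1. Because it passed the filter on low counts only through experiment 2, no test of this difference is given for it.

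Ly6c is also abundant on monocytes and Ly6a on endothelial cells, so markers of such cells were measured beside it. The 8 monocyte and macrophage markers summed to 152 to 182 CPM in DCA libraries and 168 to 218 CPM in untreated libraries of experiment 1. In experiment 2 they summed to 82.5 to 92.2 CPM in DCA libraries and 76.0 to 102 CPM in untreated libraries. Nearly all of this was Ccr2, a chemokine receptor that T cells also express, with 161 ± 16.9 CPM in DCA cells and 187 ± 26.2 CPM in untreated cells of experiment 1 (SD, n = 3 each). Csf1r, Lyz2, Fcgr1 and Adgre1, which define monocytes and macrophages, had 0 counts in all 6 libraries of experiment 1. Cd14, a co-receptor for lipopolysaccharide on the same list, had 197 counts over the DCA libraries and 143 over the untreated libraries of experiment 1, and 117 over the DCA libraries and 26 over the untreated libraries of experiment 2. Its log2 fold change over both experiments was 1.27 (SE 0.55, edgeR adjusted p = 0.133). In DCA libraries of experiment 2 none of the 8 markers was at 0. The part of these cells in the Ly6 values was not tested. The 8 neutrophil markers summed to at most 2.30 CPM. The 4 endothelial markers summed to 13.2 to 22.8 CPM in DCA libraries and 14.2 to 17.5 CPM in untreated libraries of experiment 1, and to 40.1 to 46.7 CPM in DCA libraries and 41.7 to 42.3 CPM in untreated libraries of experiment 2. Most of that sum was Pecam1, an adhesion molecule that T cells also carry, with 17.0 CPM in DCA cells and 15.4 CPM in untreated cells of experiment 1, while Cdh5 and Tek had 0 counts there. Of the 4 natural killer cell markers, which summed to 35.8 to 41.0 CPM in DCA libraries and 45.3 to 72.3 CPM in untreated libraries of experiment 1, most was Eomes, a T-box factor of effector and memory T cells too. In experiment 2 that sum was 2.39 to 5.00 CPM in DCA libraries and 5.97 to 7.18 CPM in untreated libraries, and its part in the Ly6c2 values was not tested.

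Among the other members of the family, none of those tested passed as lower with DCA, although Ly6a2 did with no filter on low counts or without 1 library. Of 44 further family genes listed, 8 passed the filter on low counts, and over both experiments 3 of these rose with DCA, against 7.01% of all tested genes, and 0 fell, with 0 lower at an unadjusted p under 0.05 and 0 called lower by limma-voom or DESeq2. All 3 also passed in experiment 1 (against 16.7% of all tested genes called in either direction), and 0 of the 8 passed in experiment 2 by edgeR (against 4.57%), where 1 was higher and 1 lower at an unadjusted p under 0.05. The DCA effect differed between the experiments for 0 of the 8 by edgeR's adjusted p (2 at an unadjusted p under 0.05). Lynx1, which modulates nicotinic acetylcholine receptors in neurons, averaged 1.03 CPM in DCA cells and 0.120 CPM in untreated cells of experiment 1, and 4.38 CPM in DCA cells and 1.80 CPM in untreated cells of experiment 2. Its log2 fold change over both experiments was 1.94 (SE 0.39, edgeR adjusted p = 0.00392). Cd59a, an inhibitor of the complement membrane attack complex, rose by 2.34 on the log2 scale (SE 0.63, adjusted p = 0.0186) from low counts.

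Ly6g5b rose by 0.25 (SE 0.08, edgeR adjusted p = 0.0421). That call was lost with a term per mouse (adjusted p = 0.0654), RLE size factors (adjusted p = 0.0535) or no filter on low counts (adjusted p = 0.111). It was also lost without the experiment term (adjusted p = 0.903) and without any of 10 of the 12 libraries (adjusted p = 0.0595 to 0.0945). Ly6a2, a close relative of Ly6a, had 465, 60 and 197 counts in the DCA libraries of mice 1, 2 and 3 of experiment 1, against 305, 450 and 312 in untreated libraries, and 33, 13 and 9 in DCA libraries, against 76, 20 and 92 in untreated libraries of experiment 2. The DCA libraries of experiment 1 were widely spread, and its log2 fold change over both experiments was -0.97 (SE 0.48, adjusted p = 0.191). It passed without the DCA library of mouse 1 of experiment 1 (-1.53, adjusted p = 0.0242) and with no filter on low counts (-0.97, adjusted p = 0.000364). In untreated cells Ly6a2, like Ly6c2, was lower in experiment 2 than in experiment 1 (log2 fold change -2.77, edgeR adjusted p = 0.00224). Of the 8 tested family genes, Ly6a2 was the 1 called lower in that contrast, and 4 were called higher. The share called among all tested genes was 51.8% in either direction. For DCA over both experiments, Ly6i (-1.44, SE 0.90), Ly6k (-0.21, SE 0.46), Lypd6b (-0.12, SE 0.37) and Cd59b (0.73, SE 0.52) did not pass. The other 34 family genes with a row in the count table had at most 50 counts over all 12 libraries, and 8 of them had none.

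**Figure D3:**
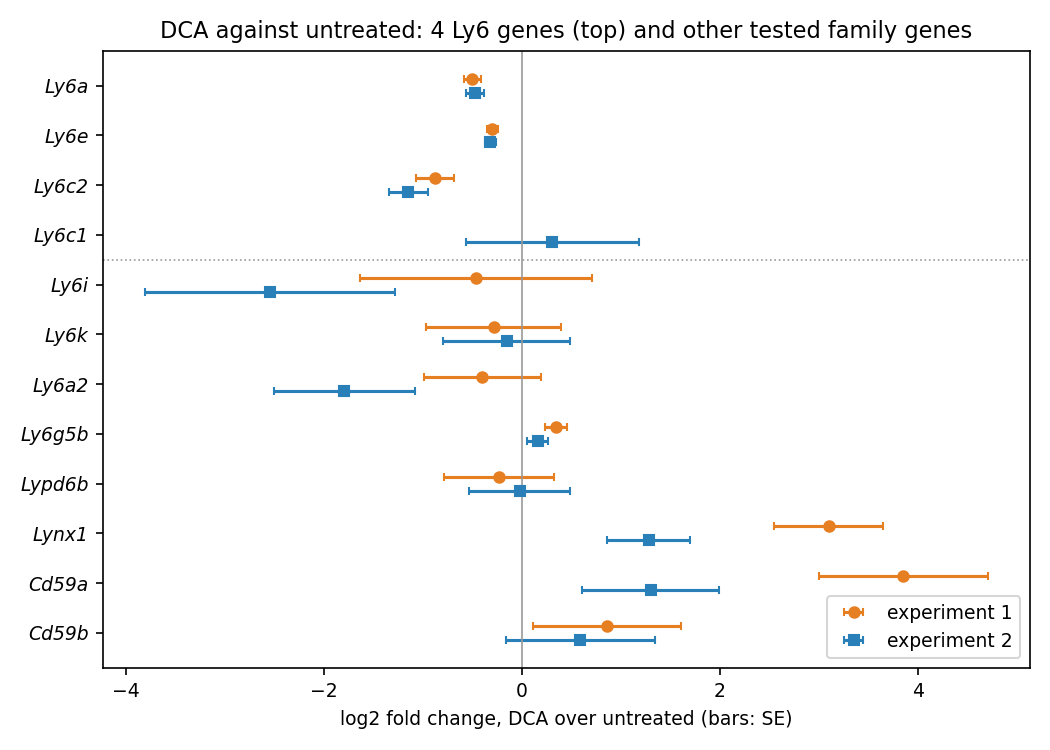
Log2 fold change, DCA over untreated (horizontal axis, bars SE), in experiment 1 (circles) and experiment 2 (squares) for the 4 Ly6 genes (top) and the 8 other tested family genes; Ly6c1 in experiment 1 is not drawn because its counts are below the floor. Ly6a, Ly6e and Ly6c2 lie left of 0 in both experiments with small errors, and Lynx1 and Cd59a lie to the right.

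Genes for making the GPI anchor that carries these proteins were divided. Of 30 tested, 3 rose, against 7.01% of all tested genes, and 1 fell, against 9.80%, over both experiments, with a median log2 fold change of -0.01 against -0.02 for all tested genes. Pigp, a subunit of the enzyme that starts anchor synthesis, rose by 0.67 (SE 0.09, edgeR adjusted p = 0.000245). Pigyl rose by 0.35 (adjusted p = 0.00324), and Pigz, a mannosyltransferase of the pathway, rose by 2.41 (adjusted p = 0.000975). Pigz had low counts in experiment 1, with 53 over the DCA libraries and 5 over the untreated libraries, and had 791 and 183 in experiment 2. Gpaa1, a subunit of the transamidase that attaches the anchor to proteins, fell by 0.53 (SE 0.11, adjusted p = 0.00361). DESeq2 called 5 higher and 2 lower genes of this list, and it called 3456 of all 15688 tested genes in either direction. In experiment 1, 2 rose and 5 fell (against 16.7% of all tested genes in either direction). In experiment 2, 4 rose and 0 fell (against 4.57%), with 2 lower at an unadjusted p under 0.05.

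Other GPI-anchored proteins of T cells went in both directions. Of 14 tested, 3 rose (against 7.01% of all tested genes), 2 fell (against 9.80%) and the median was 0.08. DESeq2 called 4 lower and the fit with no filter on low counts 5, while a filter of 5 CPM in 3 libraries left 1. In either direction, these fits called 3456 of 15688, 2915 of 38665 and 2572 of 9803 genes. Cd55, which speeds the decay of complement convertases, rose by 1.38 (SE 0.23, edgeR adjusted p = 0.00128), Bst1, an ADP-ribosyl cyclase, by 1.16 (SE 0.23, adjusted p = 0.00308) and Izumo1r, a folate receptor family member, by 0.84 (adjusted p = 0.0173). Without the DCA library of mouse 1 of experiment 2, Izumo1r did not pass (adjusted p = 0.0561). Prnp, the prion protein, fell by 0.77 (SE 0.11, adjusted p = 0.000491), and Gpc1, a glypican, fell by 1.11 (SE 0.26, adjusted p = 0.0101). Thy1, the abundant GPI-anchored marker of T cells, had a log2 fold change of -0.07 (SE 0.07, adjusted p = 0.554). Cd52, also abundant, had -0.21 (SE 0.07, adjusted p = 0.055), with -0.03 in experiment 1 (adjusted p = 0.852) and -0.40 in experiment 2 (adjusted p = 0.00982). Cd48 had 0.14 (SE 0.07, adjusted p = 0.17). In experiment 1, 4 of the 14 rose and 2 fell (against 16.7% of all tested genes in either direction). In experiment 2, 1 rose and 3 fell (against 4.57%).

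Because Ly6a, Ly6e and Ly6c2 are known to respond to interferons in mouse cells, interferon targets were set beside them. Of 40 tested, 12 fell, against 9.80% of all tested genes, and 0 rose, against 7.01%, over both experiments (19 lower and 1 higher at an unadjusted p under 0.05), with a median log2 fold change of -0.23 against -0.02 for all tested genes. The number lower was 9 to 16 across the alternatives that kept the experiment term, and 0 without it. The fit without that term called only 46 of 15688 genes in either direction. The 16 came with no filter on low counts, where 2915 of 38665 genes were called. The median was -0.42 in experiment 1, with 12 lower and 1 higher (against 16.7% of all tested genes in either direction), and -0.12 in experiment 2, with 3 lower and 0 higher (against 4.57%). Of these targets, 1 (Gbp7) differed in its DCA effect between the experiments by edgeR's test.

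Psmb8, a catalytic subunit of the immunoproteasome, fell by 0.42 (SE 0.04, edgeR adjusted p = 4.91e-05), with 738 ± 28.5 CPM in DCA cells and 1002 ± 57.5 CPM in untreated cells of experiment 1 (SD, n = 3 each). Psmb10, another such subunit, fell by 0.33 (SE 0.05, adjusted p = 0.000855), while Psmb9, the remaining immunoproteasome subunit listed, had a log2 fold change of -0.002 (SE 0.05, adjusted p = 0.985). Gbp4, a guanylate-binding protein, fell by 0.53 (SE 0.09, adjusted p = 0.00165), with -0.77 in experiment 1 (adjusted p = 0.000329) and -0.30 in experiment 2, where it did not pass (adjusted p = 0.106). Of 17 tested genes for interferons and their signalling proteins, 0 rose, against 7.01% of all tested genes, and 1 fell, against 9.80%, over both experiments. At an unadjusted p under 0.05, 2 were higher and 6 lower. DESeq2 called 3 lower, and it called 3456 of 15688 genes in either direction. In experiment 1, 1 rose and 3 fell (against 16.7% of all tested genes in either direction). In experiment 2, 0 rose and 0 fell (against 4.57%), with 2 lower at an unadjusted p under 0.05. The gene that fell over both experiments was Ifng (log2 fold change -2.18, adjusted p = 0.0394), which had 8 counts in all DCA libraries and 69 in all untreated libraries of experiment 1. Its call was lost by limma-voom (adjusted p = 0.0513) and, in edgeR, with a term per mouse (adjusted p = 0.073). The edgeR call was also lost without the experiment term (adjusted p = 0.35) and without any of 9 single libraries (adjusted p = 0.0592 to 0.0789).

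The transcription factors Irf1 (log2 fold change 0.01), Irf7 (-0.15) and Irf9 (-0.17) and the receptor chains Ifngr1 (-0.22) and Ifnar1 (-0.06) did not pass. Ifngr1 passed with no filter on low counts (-0.22, adjusted p = 0.0178), with a term per mouse (-0.22, adjusted p = 0.0497) and without the untreated library of mouse 2 of experiment 1 (-0.28, adjusted p = 0.0408). Promoter windows of 250 bases before to 50 after the start (RefSeq, GRCm38) were held for Ly6c1, Ly6c2 and the related Ly6a2. None of those windows held, on either strand, the interferon-stimulated response element core (GAAANNGAAA), the gamma-activated site (TTCNNNGAA) or the T-box site (AGGTGTG). These motifs occurred in 3.44%, 8.3% and 5.84% of the 32851 windows in the table.

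**Figure D4:**
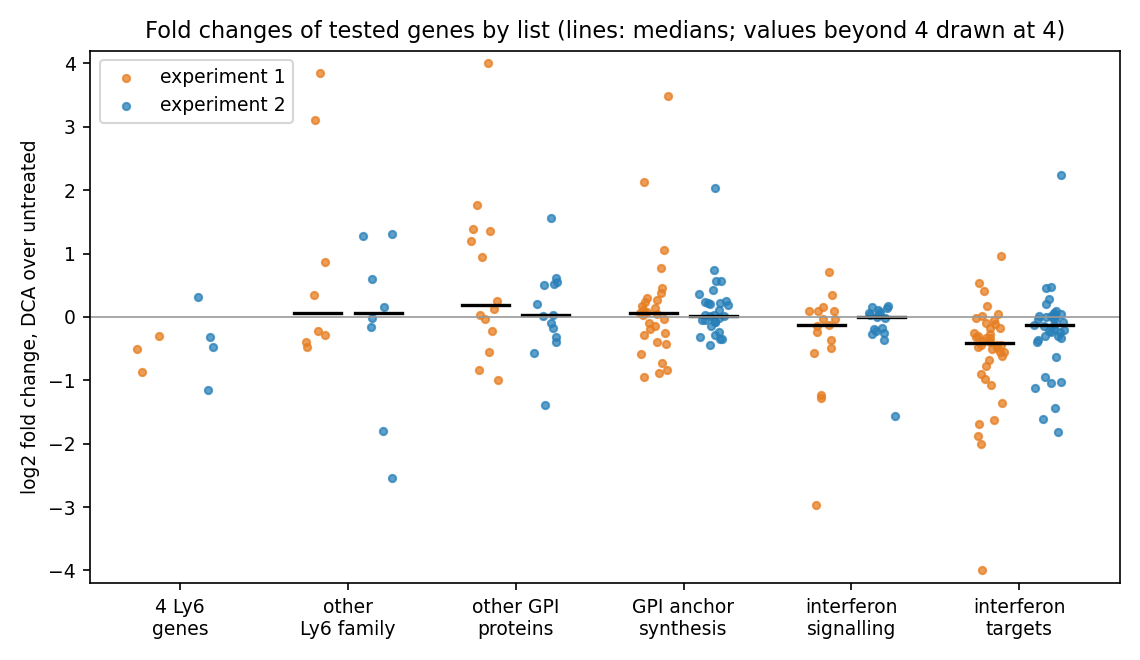
Log2 fold change, DCA over untreated (vertical axis), of each tested gene in experiment 1 (orange) and experiment 2 (blue) by gene list; black lines are medians, and values beyond 4 are drawn at 4. Ly6c1 in experiment 1 is not drawn. The interferon targets have medians of -0.42 and -0.12, and the anchor synthesis genes scatter around 0.

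Ly6C and Sca-1 are used with other surface proteins to follow memory and effector T cells, so 15 tested genes of that kind were also set beside them. Over both experiments 5 rose, against 7.01% of all tested genes, and 0 fell, against 9.80% (6 higher and 1 lower at an unadjusted p under 0.05). DESeq2 called 1 lower, and it called 3456 of 15688 genes in either direction. In experiment 1, 4 rose and 1 fell (against 16.7% of all tested genes in either direction). In experiment 2, 4 rose and 1 fell (against 4.57%). Slamf6, a receptor of less differentiated T cells, rose by 2.13 (SE 0.18, edgeR adjusted p = 1.9e-05), with 58.9 ± 4.42 CPM in DCA cells and 13.7 ± 3.24 CPM in untreated cells of experiment 2 (SD, n = 3 each). Itga4, an integrin chain, rose by 0.74 (SE 0.11, adjusted p = 0.000575), and Ccr7, a receptor for homing to lymph nodes, by 0.62 (SE 0.11, adjusted p = 0.00159). Cd44, the hyaluronan receptor, had a log2 fold change of 0.70 (SE 0.10, adjusted p = 0.00225) in experiment 2 and -0.41 (SE 0.10, adjusted p = 0.0137) in experiment 1.

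The genes whose levels followed each Ly6 gene most closely over the 12 libraries, after removing the mean of each experiment, are given as a description. The libraries share their mice and the DCA effect, and the nearest genes were picked from 7912 genes. Ly6a lay nearest to Cuta (Pearson r = 0.97), Sar1a (0.97), Tk1 (0.96), Srpr (0.96) and Cct7 (0.95). Ly6e lay nearest to Uqcrc2 (0.98), Ssr2 (0.98), Vmp1 (0.97), a gene with an ID only (0.97) and, like Ly6a, to Cuta (0.97). Ly6c2 lay nearest to Bub1b (0.96), Mpc1 (0.94), Hopx (0.93), Ndufb3 (0.93) and A430005L14Rik (0.93). All of these were themselves lower with DCA by edgeR's adjusted p, against 9.80% of all tested genes. The DCA shift was left in these correlations, so that outcome was largely fixed by how the genes were picked.

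Within the 6 libraries of each experiment other genes were nearest to Ly6c2. They were led by Itgb1 (0.99) in experiment 1 and by Dguok (0.99) in experiment 2, and no gene was among the 5 nearest in both. For Ly6c1 the nearest gene was Lnx2 (0.83 over 12 libraries), which did not change with DCA by the test (log2 fold change -0.11, adjusted p = 0.559).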

How the data were processed

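The authors deposited a table of raw read counts per gene for 12 libraries (0 unmapped columns), and their own table of log2 fold changes, log2 CPM, p-values and false discovery rates for DCA against untreated cells, per the file headers. Per the labels' protocols, cDNA came from a SmartSeq kit with 15 cycles. The submitters' processing notes name STAR 2.7.10a, fastp 0.23.2, the build GRCm39 and edgeR 3.36.0. With counter, annotation, strand setting and read length not given in the sources used here, genes that overlap or lie antisense to each other may share counts. The genes and lists were chosen with earlier results of these data known.

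The counts went into edgeR 4.0.16 under R 4.3.3 (quasi-likelihood, TMM, filterByExpr by group, Benjamini-Hochberg over 15688 genes, threshold 0.05). DCA over both experiments used a term for experiment, and the other contrasts came from 4 group means. SE is the absolute log2 fold change over the square root of F. Log2 CPM used a prior count of 2. In counts simulated from the same model, without mouse effects, median estimates lay close to the changes put in. That checks the code only, and error rates in these libraries were not tested. P-values measure the spread between libraries left by each fit. Except in the fit with a term per mouse, both arms of a mouse were treated as independent libraries.

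Named genes were the 4 genes, all tested family genes, up to 3 higher and 3 lower genes of each other list by adjusted p over both experiments, 8 fixed genes and the 5 nearest genes by Pearson r. Eomes and single markers were named after their values were seen, and Thy1, Cd48, Cd52 and Psmb9 were named outside this rule. Some of these genes are not reported here. Alternatives were RLE factors, cyclic loess with limma 3.58.1, limma-voom, DESeq2 1.42.0, other count filters, a term per mouse, summed Ly6c genes, no experiment term, 1 experiment alone and each library left out. The same alternatives for other genes and lists were added after seeing the data.

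The pairing comes from the animals, since each mouse gave both arms. Deviations from the group means correlated at 0.0443 to 0.0834 within a mouse and -0.0689 to -0.00438 between mice. Replicates of a group gave a chi-square of 10.8 to 29.8 per degree of freedom, so no pair agreed within sampling noise. Coordinates were not used, since the reference annotation is GRCm38.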

Additional observations from a re-analysis of the deposited data

Results flagged for a closer look

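The DCA effect on Cd44 differed between the experiments, by 1.11 on the log2 scale (experiment 2 minus experiment 1, SE 0.15, edgeR adjusted p = 0.0107). It averaged 62.7 ± 3.56 CPM in DCA cells and 38.6 ± 3.04 CPM in untreated cells of experiment 2, and 51.0 ± 5.67 CPM in DCA cells and 67.9 ± 3.05 CPM in untreated cells of experiment 1 (SD, n = 3 each). The difference no longer passed without DCA mouse 2 or 3 or untreated mouse 1 or 2 of experiment 2, at 0.96 to 1.03 (adjusted p = 0.0611 to 0.0902). The DCA effect on Gbp7, a guanylate-binding protein among the interferon targets, differed by 0.65 (SE 0.12, adjusted p = 0.0372), with 201 ± 14.9 CPM in DCA cells and 189 ± 10.2 CPM in untreated cells of experiment 2, and 153 ± 15.4 CPM in DCA cells and 225 ± 13.0 CPM in untreated cells of experiment 1. It did not pass with a term per mouse (0.65, adjusted p = 0.0768), RLE size factors (adjusted p = 0.0574) or cyclic loess (adjusted p = 0.0753), nor without any of 9 single libraries (0.49 to 0.68).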

How the results depend on the processing

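With a term per mouse (the replicate block), the log2 fold change over both experiments was -0.49 for Ly6a, -0.31 for Ly6e and -1.01 for Ly6c2, and 0 of these 3 genes were called for the difference between experiments. No paired analysis was possible for experiment 2 against experiment 1, because mouse and experiment cannot be separated there. The block also changed other calls over both experiments. With it, 4 of the 14 other GPI-anchored proteins rose, against 3 without it, and 9 of the 40 interferon targets fell, against 12. It called 2094 of 15688 genes in either direction. Ly6c2 kept its direction in all alternatives, with -1.08 to -0.86 over both experiments.

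All values here are log2 fold changes, and the cause of each shift was not tested. Cyclic loess gave -0.33 for Ly6a and -0.14 for Ly6e over both experiments, -0.30 and -0.088 in experiment 1, and -0.35 and -0.19 in experiment 2. A value was counted as moved when it shifted by at least the SD of the differences within mice. For Ly6e in experiment 2 that SD was only 0.0049, so small shifts from the main value of -0.32 (SE 0.05) counted. Ly6e also moved with a filter of 5 CPM in 3 libraries (-0.26 over both, -0.21 in experiment 1) and with experiment 1 alone (-0.22) or experiment 2 alone (-0.31). In experiment 2 it moved with RLE factors or DESeq2 too (-0.35 each).

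Sign changes near 0 were seen for the difference of Ly6a between experiments, at -0.010 with RLE factors and with DESeq2, -0.057 with cyclic loess and -0.061 with the 5 CPM filter. In untreated cells, experiment 2 over experiment 1, Ly6a was 0.0075 with RLE factors and with DESeq2, 0.037 with no filter, 0.049 with the 5 CPM filter and 0.88 with cyclic loess. Ly6e was 0.0069, 0.018 and 0.99 with no filter, the 5 CPM filter and cyclic loess, which called all 3 of Ly6a, Ly6e and Ly6c2. Ly6k turned to 0.061 with cyclic loess, 0.075 with limma-voom and 0.041 with the block.

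Leaving out each library gave, in experiment 2, -0.55 to -0.47 for Ly6a and -0.40 to -0.32 for Ly6e. The difference between experiments ran from -0.11 to 0.12 for Ly6a and -0.15 to 0.0069 for Ly6e. In untreated cells, experiment 2 over experiment 1 ran from -0.046 to 0.075 for Ly6a and -0.051 to 0.069 for Ly6e, with Ly6c2 called each time. Over both experiments DCA gave -0.43 to 0.040 for Ly6k, -0.38 to 0.080 for Lypd6b, -0.024 to 0.050 for Irf1 and -0.082 to 0.011 for Ifnar1. Counts below 3 per library limit Ly6c1 in experiment 1.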
